A study of Saccharomyces cerevisiae with 49 samples.

Results

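The genes described here encode the proteasome of budding yeast and RPN4, the transcription factor that regulates them. They were chosen by name from the platform annotation: RPN genes, RPT1 to RPT6, PRE genes, PUP1 to PUP3 and SCL1. This gave 34 of 6228 features, of which 33 encode subunits or an assembly factor of the proteasome and 1 is RPN4 (YDL020C). Each was measured by 1 probe.

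The proteasome degrades proteins that carry ubiquitin chains. Its core particle is a barrel of stacked rings, the outer ones built of alpha subunits that gate the entry and the inner ones of beta subunits, some of which cut peptide bonds. The regulatory particle caps the barrel: its base holds a ring of ATPases that unfold substrates together with scaffold proteins and ubiquitin receptors, and its lid carries a deubiquitinase. Rpn4 binds a short promoter element, PACE, in front of most proteasome genes and activates them. Rpn4 is itself destroyed by the proteasome within minutes, which makes a feedback loop, and its own gene is a target of the stress factors Hsf1, Yap1, Pdr1 and Pdr3.

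Transcript levels were measured on 49 dual-colour arrays in 3 time courses after release from a G1 arrest. The alpha-factor course was 1 culture of BY4741 bar1- cells, which lack the protease Bar1 that degrades the pheromone; they were held with alpha factor for 3 hours, filtered, washed and moved to fresh YPD medium, and 17 arrays covered 0 to 150 min. The cdc28 courses were 2 cultures of BY4741 cells with a temperature-sensitive cdc28 allele, the cyclin-dependent kinase, held at 37 °C for 3 hours and then cooled with cold YPD. Culture B gave 16 arrays, every 15 min up to 225 min. Culture E gave 16 arrays up to 160 min, every 10 min to 140 min. On every array the Cy5 channel held the synchronized cells and the Cy3 channel unarrested mid-log cells of the same strain, and values are log2 ratios of the first over the second, so that 0 is the mid-log level. Per the labels the RNA was total RNA in the alpha-factor course and polyA RNA in the cdc28 courses, although both protocols purify mRNA. In whole cultures, fewer cells with a transcript and less transcript per cell cannot be told apart. The table states neither log base, centring nor direction; log2 is assumed and the direction follows the dyes in the labels. Each array was centred on its median over all features, so the median of all genes is 0 on every array. Strain, kind of arrest, temperature, culture and the kind of RNA in the labels cannot be told apart between the alpha-factor and the cdc28 courses.

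The arrests were checked on marker genes. The pheromone-induced adhesin gene AGA1 stood at 5.37 at 0 min in the alpha-factor course, against 1.47 for culture B and -0.29 for E. The stress gene HSP12 stood at 0.59 there, against 6.38 and 5.74. For BAR1 there were 0 alpha-factor values, as against 32 in the cdc28 cultures, but the same held for the pheromone receptor gene STE2, so missing values alone do not mark the deletion. The a-cell pheromone gene MFA1 was at 3.03, 1.96 and 2.22 at 0 min in the alpha-factor course, culture B and culture E. Other a-cell genes were not all high: at 0 min in culture E STE6 was at -0.57 and AGA2 at 0.57. The alpha-cell pheromone gene MF(ALPHA)1 was also high at 0 min in cultures B and E, at 1.57 and 1.37. The alpha-cell gene SAG1 was at -0.34 and -0.39 there. These values thus do not settle the mating type.

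Between 4189 and 6110 features had a value on an array. The 135 min array of culture B stood apart, with the fewest values and the widest interquartile range of the log2 ratios, 1.16, against at most 0.95 on any other array. The 70 min and 15 min arrays of the alpha-factor course held 4588 and 4911 values, the next fewest. Counts of proteasome genes that changed or cycled in culture B are given with and without the 135 min array. For the alpha-factor course, counts of genes that cycled are given with and without the 70 and 15 min arrays. Counts of genes that changed there are given as a range over single arrays left out. Counts for the other gene lists in culture B include the 135 min array.

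RPN4 was above the mid-log level on all 17 alpha-factor arrays and below it on all 32 cdc28 arrays. Its log2 ratio in the alpha-factor course was lowest at 60 min, at 0.24, had a median of 0.79 and was highest at 30 min, at 1.53. In culture B the lowest value was -1.04 at 135 min, the median -0.44 and the highest value -0.06 at 225 min. In culture E they were -0.71 at 40 min, -0.48 and -0.15 at 0 min. The courses did not overlap, and the lowest alpha-factor array lay 0.29 above the highest cdc28 array. Of 4977 features with values on enough arrays of both arrests, 10 had all alpha-factor arrays above all cdc28 arrays, which is 0.201%. PRE9, with values on 3 of 32 cdc28 arrays, was not among these 4977. RPN4 was the only one of the 34 genes among the 10. The others with a gene name were CUR1, HSC82, MDJ1, SIS1, HFD1, YGR035C and YIL082W-A, of which HSC82, MDJ1 and SIS1 encode chaperones. They were named after their values were seen.

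**Figure D1:**
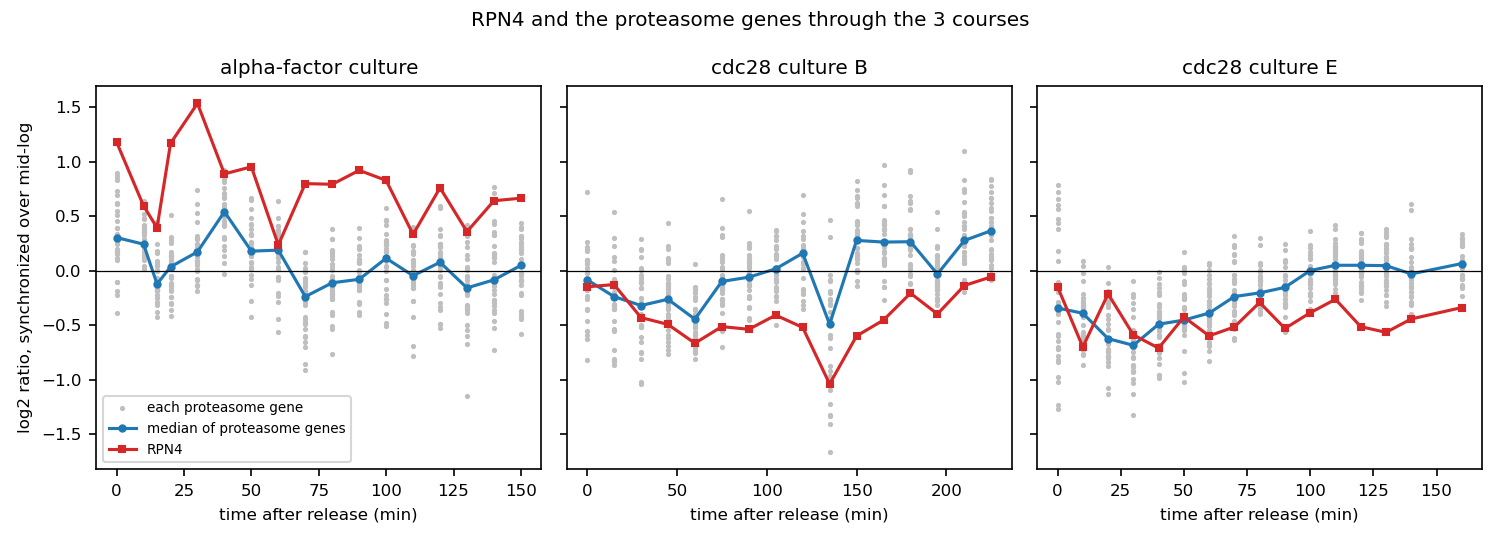
Log2 ratios (synchronized against mid-log) against minutes after release, 1 panel for each course; grey points are the proteasome genes on each array, the blue line is their median and the red line is RPN4. RPN4 stays between 0.24 and 1.53 in the alpha-factor course and between -1.04 and -0.06 in the cdc28 cultures, while the median of the proteasome genes crosses 0 in all 3 courses.

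Array names carry a letter, T or B, and the alpha-factor and culture B arrays come from 1 named array series while those of culture E come from another. Within the alpha-factor course the median RPN4 ratio was 0.78 on arrays with the letter B and 0.80 on arrays with the letter T. In culture B these medians were -0.43 and -0.47, and in culture E -0.51 and -0.44.

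The arrests were compared at 0, 30 and 120 min in a limma fit over the shared times, which are 0, 30, 60, 90 and 120 min, with 1 mean for each arrest and time. At 0 min RPN4 was at 1.18 in the alpha-factor course and at -0.15 in both cdc28 cultures, a difference of 1.33 ± 0.26 (SE) on the log2 scale, where 1 is a factor of 2 (adjusted p 0.029, limma). At 30 min it was at 1.53 against -0.43 in culture B and -0.59 in culture E, a difference of 2.04 ± 0.26 (limma, adjusted p 0.00667). At 120 min it was at 0.76 against -0.52 and -0.51, a difference of 1.28 ± 0.26 that did not pass the threshold of 0.05 (limma, adjusted p 0.344). At each time the alpha-factor group is a single array, whose spread is taken from the pairs of cdc28 arrays. The difference at 0 min missed the threshold under quantile normalization, at 0.98 with an adjusted p of 0.141 in limma. It missed it as well without the 0 min array of culture E (adjusted p 0.0601, limma), or without the 60 or 120 min array of either cdc28 culture, which only enter through the shared spread. Under quantile normalization the difference at 120 min was 1.62, and it passed (adjusted p 0.0452, limma).

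No change of RPN4 from 0 min passed the threshold. In the cdc28 cultures it differed from 0 min by -0.36 ± 0.21 at 30 min, -0.48 ± 0.21 at 60 min, -0.39 ± 0.21 at 90 min and -0.37 ± 0.21 at 120 min (SE; limma, adjusted p 0.359, 0.223, 0.335 and 0.358). In the alpha-factor course the ratio was 1.18 at 0 min, 0.39 at 15 min, 1.17 at 20 min and 1.53 at 30 min; these are single arrays. The change from 0 to 30 min there was 0.36 ± 0.30 (limma, adjusted p 0.707). The difference between the 30 min changes of the arrests was 0.72 ± 0.36 (limma, adjusted p 0.48). A spline of time in limma gave RPN4 adjusted p-values of 0.741 in the alpha-factor course, 0.0593 in culture B and 0.551 in culture E. Without the 135 min array, the lowest of culture B, RPN4 passed in that culture (adjusted p 0.012, limma). It then had its fitted low at 67 min and a fitted range of 0.53. A cycle at the period of the course was not called for RPN4 in any course; in the alpha-factor course its amplitude was 0.28 ± 0.09 with a peak at 35.6 min (limma, adjusted p 0.0753; 0.0282 under quantile normalization).

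The proteasome genes were not all on one side of the mid-log level. In both cdc28 cultures they were mostly below the mid-log level in the first hour and returned to it or above it between 90 and 120 min. In culture B the median over the genes was -0.08 at 0 min, -0.32 at 30 min, -0.44 at 60 min, 0.16 at 120 min and 0.37 at 225 min. In culture E it was -0.34 at 0 min, -0.68 at 30 min, -0.39 at 60 min, 0.05 at 120 min and 0.07 at 160 min. At 30 min 26 of the 33 genes with a value in culture B were below 0, and all 30 with a value in culture E. At 225 min 29 of 32 were above 0 in culture B, and at 160 min 21 of 32 in culture E. The 135 min array of culture B broke this course, with a median of -0.49 and 29 of 31 genes below 0.

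**Figure D2:**
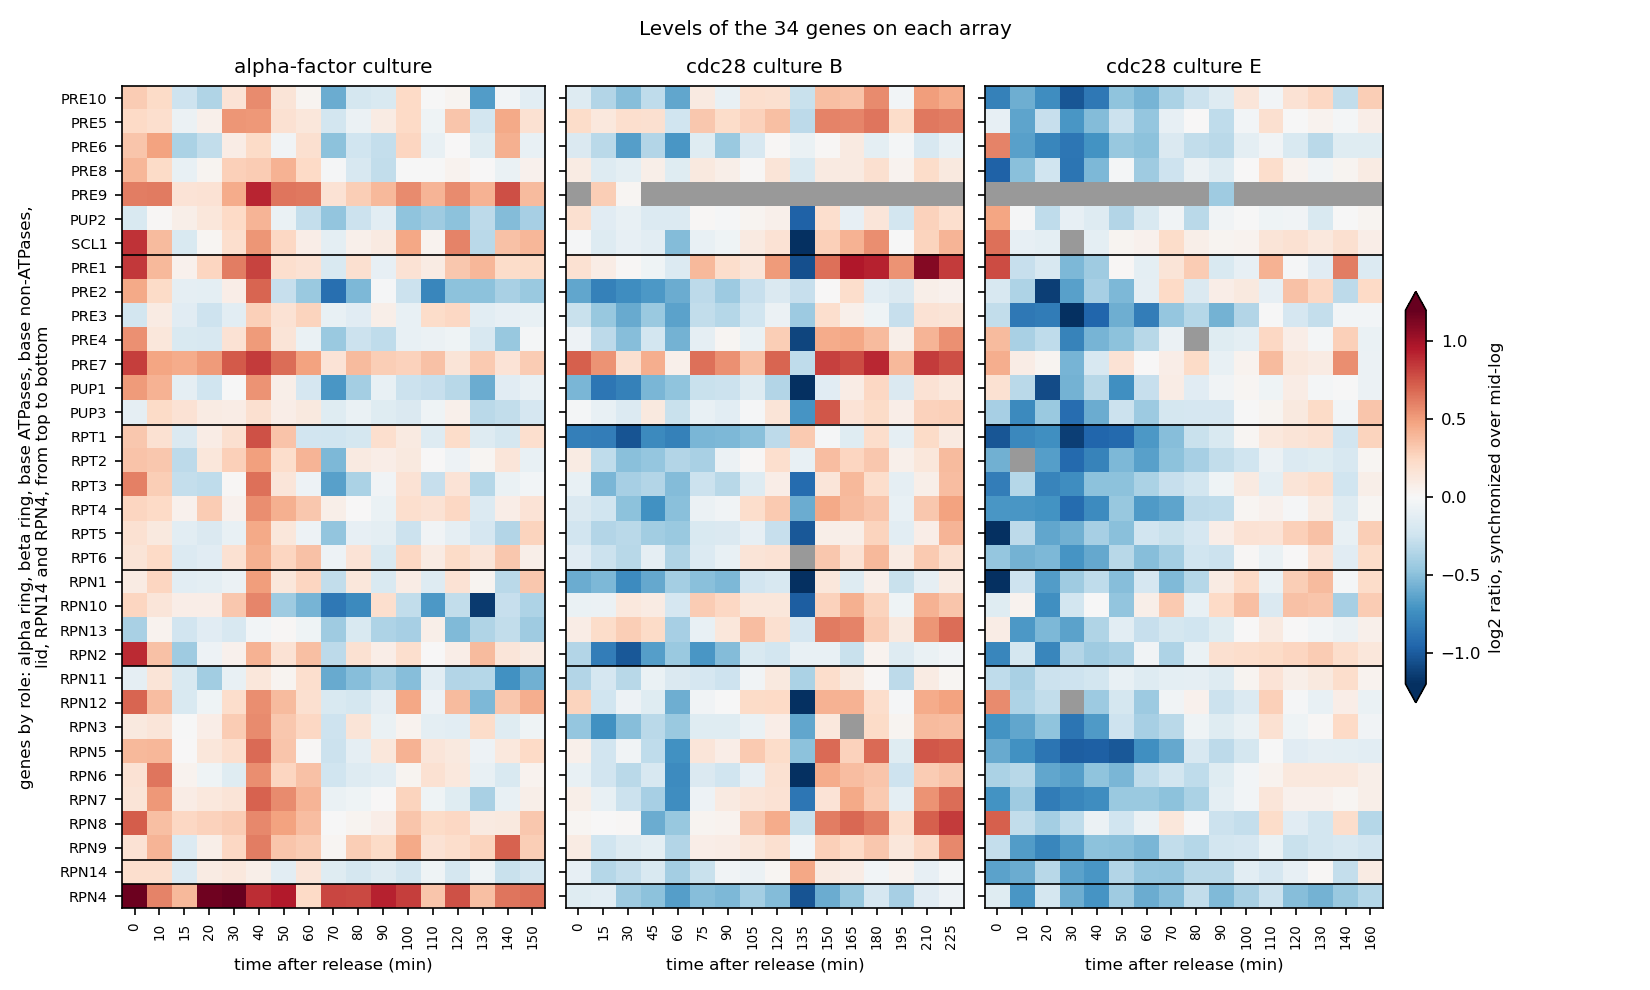
Log2 ratio of each of the 34 genes (rows, grouped by role) on each array (columns, minutes after release) in the 3 courses; the colour scale ends at -1.2 and 1.2 and grey marks arrays with no value. The early cdc28 columns are mostly blue and the later ones pale or red, the 135 min column of culture B stands apart, RPN4 in the bottom row is red throughout the alpha-factor course, and PRE9 has values on 3 of the 32 cdc28 arrays.

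Early and late arrays were compared as means, with the windows of 10 to 60 min and of 120 min and later chosen after the values were seen, so they describe and do not test. All 32 genes with enough cdc28 values had a higher late than early mean in culture B, and all 32 in culture E. Over all features of these cultures the shares with a higher late mean were 48.7% and 51.6%. The median late minus early difference of the proteasome genes was 0.47 in culture B, with a range of 0.09 to 0.90. In culture E it was 0.57, with a range of 0.11 to 0.96. Without the 135 min array the median of culture B was 0.57. For RPN4 the same difference was 0.00 for culture B and 0.07 for E. The value for culture B includes the 135 min array, where RPN4 was lowest, at -1.04. On the other late arrays of culture B it lay between -0.60 and -0.06, against -0.66 to -0.13 on the early ones. Its difference without the 135 min array was not computed.

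In culture E 25 of 32 genes had every late value above every early value, over 4 late arrays and 6 early ones, or 5 for the genes with a missing early value, against 13.9% of all features. In culture B 10 of 32 genes had every late value above every early value, over up to 8 late and 4 early arrays, against 7.16% of all features. Without the 135 min array of culture B these were 22 of 32 genes and 9.99%.

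**Figure D3:**
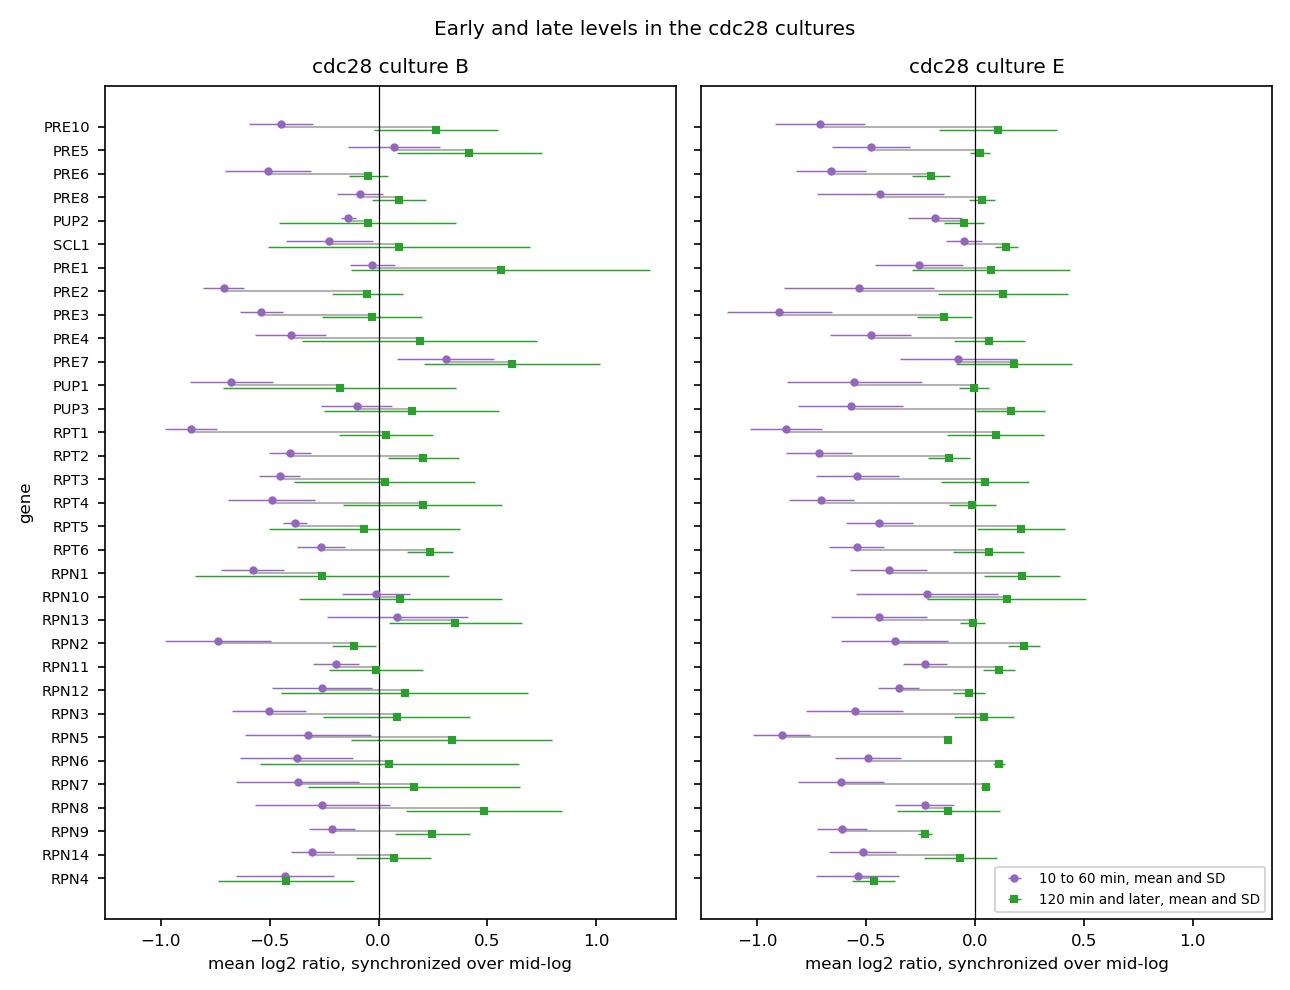
Mean log2 ratio with SD over arrays (x axis) of each gene (y axis) in the early window of 10 to 60 min (circles) and on arrays from 120 min on (squares) in cdc28 cultures B and E. Every gene except RPN4 has its late mean right of its early mean by at least 0.09, and RPN4 moves by 0.00 and 0.07. The late means and wide late bars of culture B include the 135 min array, on which RPN4 was lowest, at -1.04.

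The change over time was tested in each course alone with a natural cubic spline in limma, adjusted over all genes. In culture E 25 of 32 proteasome genes changed, beside 59.6% of all genes. In culture B 12 of 32 changed, beside 31.9% of all genes. Without the 135 min array of that culture 25 of 32 changed, beside 47.4%. In the alpha-factor course 1 of 33 changed, beside 8.14%. The share in culture B was thus close to that of all genes with the 135 min array. The fitted curves were lowest at a median of 49.5 min for culture B and 32 min for E, and their median range was 0.67 and 0.77, where the medians over all genes were 0.66 and 0.77.

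Among the roles, the ATPases of the base had the largest median late minus early difference, 0.56 in culture B against 0.63 in culture E. All 6 changed in culture E, beside 59.6% of all genes. In culture B 3 of 6 changed, RPT1, RPT2 and RPT6, beside 31.9%, and all 6 when the 135 min array was left out, beside 47.4%. RPT1 (YKL145W) was at -0.82 at 0 min, -1.04 at 30 min, -0.31 at 120 min and 0.10 at 225 min in culture B. In culture E it was at -1.02 at 0 min, -1.13 at 30 min, 0.16 at 120 min and 0.27 at 160 min. Its fitted range was 1.00 for culture B (limma spline, adjusted p 0.000361) and 1.13 in culture E (adjusted p 2.8e-05). The 135 min array, at 0.31, was the highest value of RPT1 in culture B, although most of the genes were low on it. Late means of RPT1 exceeded early ones by 0.90 and 0.96, the largest of the 32 genes in both cultures.

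The base also holds the scaffolds RPN1 and RPN2. RPN2 (YIL075C) went from -1.02 at 30 min to -0.04 at 225 min in culture B and from -0.78 at 0 min to 0.13 at 160 min in culture E. It changed in both cultures (limma spline, adjusted p 0.00586 and 0.00061). RPN1 and RPN13 changed in culture E, and RPN1 also in culture B when the 135 min array was left out (limma spline, adjusted p 0.00328). The ubiquitin receptors RPN10 and RPN13 had late minus early differences of 0.11 and 0.27 in culture B. RPN13 had an early mean of 0.09 there, 1 of 3 proteasome genes with an early mean above 0 in culture B; the others were PRE5 at 0.07 and PRE7 at 0.31.

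In the lid, 6 of 8 genes changed in culture E, all but RPN8 and RPN12, beside 59.6% of all genes. In culture B 3 of 8 changed, RPN3, RPN8 and RPN9, beside 31.9%. When the 135 min array was left out 7 of 8 changed, all but RPN11, beside 47.4%. RPN5 (YDL147W) had the smallest adjusted p of all members in culture E (limma spline, adjusted p 6.69e-06). It lay between -1.02 and -0.60 on the arrays up to 60 min and between -0.14 and -0.11 on those from 120 min on. In culture B RPN5 was called when the 135 min array was left out (limma spline, adjusted p 0.0199) and not with it. With that array its early mean was -0.32 ± 0.29 and its late mean 0.34 ± 0.46 (SD over 4 and 8 arrays). RPN8, the partner of the deubiquitinase RPN11, had a late minus early difference of 0.74 for culture B and of 0.11 for E, the smallest there. RPN11 itself differed by 0.18 and 0.34. RPN14, which helps to assemble the base and is not part of the finished particle, changed in both cultures (limma spline, adjusted p 0.0417 and 0.00551).

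In the alpha ring of the core, PRE10 and PRE6 changed in culture B, and PRE10, PRE5, PRE6 and PRE8 in culture E, of 6 genes tested, beside 31.9% and 59.6% of all genes. When the 135 min array was left out, 4 of 6 changed in culture B, PRE10, PRE5, PRE6 and SCL1, beside 47.4%. PRE10 (YOR362C) went from -0.51 at 30 min to 0.45 at 225 min in culture B and from -1.03 at 30 min to 0.29 at 160 min in culture E. PUP2 had late minus early differences of 0.09 and 0.14, the smallest of the 32 genes in culture B. PRE9, the ring's one subunit that yeast can live without, had positive values on all 17 alpha-factor arrays, from 0.16 to 0.92 with a median of 0.45. It had values on only 3 of 32 cdc28 arrays and was not tested there. Of 4243 features with values on all alpha-factor arrays, 33 had values on 3 or fewer cdc28 arrays; why these values are missing was not tested.

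In the beta ring the genes of the catalytic subunits are PRE3, PUP1 and PRE2. PRE2 and PRE3 changed in both cdc28 cultures and PUP1 in culture E. In all, 2 of 7 beta genes changed in culture B, beside 31.9% of all genes, and 5 of 7 in culture E, beside 59.6%. PRE3 was at -0.60 at 30 min and 0.16 at 225 min in culture B, and at -1.32 at 30 min and -0.04 at 160 min in culture E. PRE4 and PUP3 also changed in culture E. When the 135 min array was left out, 5 of 7 changed in culture B, PRE1, PRE2, PRE3, PRE4 and PUP1, beside 47.4% of all genes. PRE7 was called in neither culture with or without that array. PRE7 stood above the mid-log level on 15 of 16 arrays of culture B, with a median of 0.60, and on all 17 alpha-factor arrays, with a median of 0.38.

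Single times were then compared with 0 min in the cdc28 cultures. At 30 min 28 of 32 proteasome genes were lower than at 0 min, with a median of -0.28, and 0 passed the threshold, beside 5.29% of all genes; 4 had an unadjusted limma p under 0.05, all lower, against 22.0% of all genes in either direction. The largest decreases were those of PRE6, at -0.97 ± 0.29, and PRE4, at -0.81 ± 0.25 (SE; limma, adjusted p 0.0911 and 0.108). RPN1, RPT5, RPN10 and RPN11 went the other way, at 0.34, 0.28, 0.07 and 0.04. At 60 min 22 of 32 were lower, with a median of -0.23, and 0 passed, beside 4.42% of all genes; 4 had an unadjusted limma p under 0.05, against 21.8% of all genes. The lid gene RPN12 had the largest decrease at 60 min, -0.93 ± 0.25 (limma, adjusted p 0.0834), and it passed with the culture as a block (limma, adjusted p 0.0467). When the 0 min array of culture B was left out, 1 gene passed as lower at 30 min and 1 at 60 min. For the refits with the block or without that array, the shares of all genes called are not given here. At 90 min 21 of 32 were higher, with a median of 0.09, and 0 passed, beside 3.15% of all genes; 0 had an unadjusted limma p under 0.05, against 19.9%. At 120 min 25 of 32 were higher, with a median of 0.34, and 0 passed, beside 2.43%; 4 had an unadjusted limma p under 0.05, all higher, against 19.1%. RPN1 and RPT1 had the largest differences, 0.98 ± 0.33 and 0.84 ± 0.25 (limma, adjusted p 0.156 and 0.124). PUP2, RPN12 and PRE6 had the most negative differences at 120 min, -0.32, -0.31 and -0.29. These comparisons share the 0 min arrays.

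Those 0 min arrays did not place the genes alike. PRE6 was at -0.18 in culture B and 0.60 in culture E, and RPN8 at 0.02 and 0.72. PRE8 was at 0.09 and -0.97, RPT5 at -0.23 and -1.23, and RPN1 at -0.59 and -1.27. Values in culture E at 0 min thus ran from -1.27 to 0.79 over the 32 genes, and at 10 min from -0.86 to 0.09. Against 30 min instead, a reference chosen after these arrays were seen, all 32 genes were higher at 120 min, by 0.10 to 1.00 with a median of 0.60, where the median of all genes was -0.01. None of them passed the threshold, beside 0.751% of all genes called higher; 13 had an unadjusted limma p under 0.05, against 7.64% of all genes that were higher at such a p. RPT1 and PRE10 differed most, by 1.00 ± 0.25 and 0.96 ± 0.29 (limma, adjusted p 0.131 and 0.181), and PUP2 and RPN12 least, by 0.10 and 0.17. RPN4 differed by -0.01 ± 0.21.

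In the alpha-factor course the median of the proteasome genes stayed within 0.54 of the mid-log level. It was 0.30 at 0 min, -0.12 at 15 min, 0.54 at 40 min, -0.24 at 70 min and 0.11 at 100 min, and between -0.16 and 0.08 on every later array. At 40 min 32 of 33 genes were above 0, and at 70 min 29 of 33 were below it. In the early and late windows used above, 6 of 33 genes had a higher late than early mean here, against 48.2% of all features. The median late minus early difference of the 33 genes was -0.20, with a range of -0.55 to 0.11. Of the 33 genes, 0 had every late value above every early value, against 2.46% of all features. From 0 to 30 min 21 of 32 genes had a negative difference, with a median of -0.14, and 0 passed, beside 1.13% of all genes; 0 had an unadjusted limma p under 0.05, against 12%. RPN2 and SCL1 had the most negative differences, -0.84 and -0.66, and PUP2 and PRE5 the most positive, 0.42 and 0.28. PUP2 (YGR253C), an alpha ring gene, was the 1 gene that changed over the course, from 0.24 at 30 min and 0.41 at 40 min to between -0.52 and -0.32 on the arrays from 120 min on (limma spline, adjusted p 0.0129). It missed the threshold without the 20 min or the 30 min array.

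A cycle was sought at periods set on cell cycle marker genes, 53 min in the alpha-factor course, 124 min for culture B and 118 min for E. In the alpha-factor course 8 of 33 proteasome genes were called periodic, beside 26.2% of all genes. They were PRE10, PRE2 and PUP1 of the core, the ATPase gene RPT3 and the lid genes RPN12, RPN5, RPN7 and RPN8. Their amplitudes were 0.18 to 0.33 on the log2 scale and their fitted peaks fell between 40.0 and 49.1 min after release, within 1 period. RPN12 had an amplitude of 0.33 ± 0.09 with a peak at 47.9 min (limma, adjusted p 0.02). The values behind this cycle were high at 40 min and low at 15 and 70 min, and the latter are the 2 arrays with the fewest values of the course. Without the 70 min array 3 genes were called, without the 15 min array 6 and without the 40 min array 5, and with a period 10% shorter 0 were called. In culture B 0 of 32 were called, beside 14.2% of all genes, and 0 had an unadjusted limma p under 0.05; without the 135 min array 2 were called. In culture E 2 of 32 were called, RPN5 and RPT1, beside 7.98% of all genes, with peaks at 105.0 and 104.3 min. For the refits without an array or with another period, the share of all genes called is not given here. A shift particular to the proteasome genes thus cannot be told from a general one.

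The proteasome genes were compared between the arrests in the same fit. At 0 min 30 of 32 genes were higher in the alpha-factor course, with a median difference of 0.47, and 0 passed, beside 3.65% of all genes; 6 had an unadjusted limma p under 0.05, all higher, against 22.9% of all genes in either direction. RPN2 and RPT1 differed most, by 1.46 ± 0.43 and 1.25 ± 0.31 (SE; limma, adjusted p 0.0888 and 0.0589), and PUP2 and RPN13 had negative differences, -0.52 and -0.47. With the culture as a block 3 passed, RPN2, RPT1 and PRE2. The shares of all genes called with a block or with the array letter, here and at 30 min, are not given. Those printed beside them are of the fit without either, so such calls cannot be told from a general shift. The culture block takes the arrest difference from the fitted level of culture B alone, not from the mean of both cdc28 cultures. The difference of PRE2 at 0 min was 1.06 with the block instead of 0.86. At 30 min 31 of 32 were higher, with a median of 0.69, and 0 passed, beside 2.47% of all genes; 8 had an unadjusted limma p under 0.05, all higher, against 19.4%. RPT1 and RPT2 differed most, by 1.27 ± 0.31 and 1.00 ± 0.37 (limma, adjusted p 0.0717 and 0.188), and RPN13, at -0.02, was the exception. The median difference was 0.41 when the 30 min array of culture E was left out, and 0.95 when that of culture B was. With the culture as a block RPT1 and PRE2 passed, and with the array letter as a covariate RPT1, RPN2 and RPN3. At 120 min 15 of 32 were higher and 17 lower, with a median of -0.04, and 0 passed, beside 0.0358% of all genes; 0 had an unadjusted limma p under 0.05, against 5.53%. The 120 min difference of RPN4 was 1.28. The changes from 0 to 30 min differed between the arrests by a median of 0.08 for the proteasome genes, and 0 passed, beside 0.698% of all genes; 0 had an unadjusted limma p under 0.05, against 12%.

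Genes that are known partners were read beside them. The 22 heat shock chaperone genes are targets of Hsf1, and at 30 min 11 of 22 were higher in the alpha-factor course and 0 lower, with a median difference of 1.89, beside 2.47% of all genes called. BTN2, SIS1 and HSP104 differed by 4.36 ± 0.71, 3.97 ± 0.40 and 3.88 ± 0.46 (SE; limma, adjusted p 0.018, 0.00347 and 0.00529). At 0 min 4 of 22 were higher, beside 3.65% of all genes called, and at 120 min 1, beside 0.0358%. In the cdc28 cultures 10 of 22 chaperone genes fell from 0 to 30 min, with a median of -1.11, beside 5.29% of all genes called, led by HSP104 at -3.12 ± 0.37 (limma, adjusted p 0.0031). Their part in the RPN4 difference was not tested. The median of the list in the alpha-factor course was 1.04 at 0 min and 0.72 at 30 min. At these times it was -0.09 and -1.25 in culture B, and 0.28 and -1.18 in culture E.

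**Figure D4:**
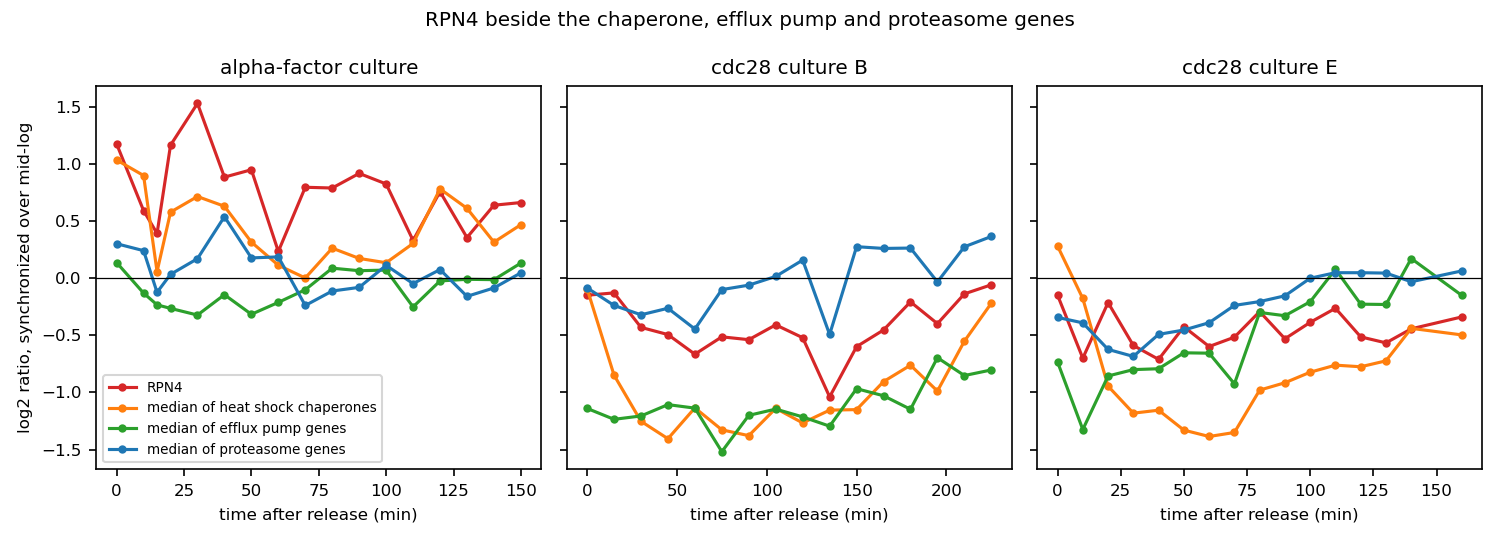
Log2 ratios (synchronized against mid-log) against minutes after release in the 3 courses, for RPN4 (red) and for the medians of the heat shock chaperone genes (orange), of the efflux pump genes (green) and of the proteasome genes (blue). At 30 min the chaperone median is 0.72 in the alpha-factor course, -1.25 in culture B and -1.18 in culture E, where RPN4 is 1.53, -0.43 and -0.59.

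The 6 genes for drug efflux pumps and related transporters, are targets of Pdr1. Their median lay between -1.52 and -0.70 on the arrays of culture B, between -1.32 and 0.17 on those of culture E and between -0.32 and 0.14 on those of the alpha-factor course. Culture B thus lay below the alpha-factor course on every array, while culture E overlapped it. Not all 6 genes were low in culture E, where the medians over time of PDR10 and SNQ2 were 0.15 and 0.13. The pump gene SNQ2 was higher in the alpha-factor course at 0 min, by 2.27 ± 0.49, and at 30 min, by 2.30 ± 0.49 (SE; limma, adjusted p 0.0391 and 0.0467), and was the 1 gene of the 6 that passed at each time. PDR5 differed by 2.64 ± 1.05 at 0 min and did not pass (limma, adjusted p 0.181). Between the arrests 3.65% of all genes were called at 0 min and 2.47% at 30 min. Of the 6 genes, 1 other than SNQ2 was called higher for the difference of the 30 min changes, beside 0.698% of all genes. All 6 changed over time in culture E, beside 59.6% of all genes, and 3 of 6 in culture B, beside 31.9%.

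The 6 genes that act on RPN4 or its protein are PDR1, PDR3, YAP1, HSF1, UBR2 and MUB1; the last 2 encode the ligase that ubiquitinates Rpn4 and its partner. None of them passed in the 9 contrasts. At 30 min between the arrests 2 of 6 had an unadjusted limma p under 0.05, against 19.4% of all genes. UBR2 had a difference of -0.99 ± 0.27 (limma, adjusted p 0.099). The spline called 2 of 6 in culture B, 2 of 6 in culture E and 0 of 6 in the alpha-factor course. The shares of all genes were 31.9%, 59.6% and 8.14%. In the alpha-factor course 1 of 6 had an unadjusted limma p under 0.05, against 1410 of 5359 genes.

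Other genes of the pathway were counted in the same way. Of the assembly chaperones and accessory factors, 1 of 12 fell in the cdc28 cultures at 30 min, beside 5.29% of all genes called. This was the base chaperone gene NAS6, at -1.19 ± 0.27 (limma, adjusted p 0.0396). The spline called 7 of 12 in culture E, 2 of 12 in culture B and 1 of 11 in the alpha-factor course, beside 59.6%, 31.9% and 8.14% of all genes. Of the ubiquitin pathway genes, 1 of 25 fell at 30 min, which is below that 5.29% of all genes. This was the polyubiquitin gene UBI4, at -1.22 ± 0.27 (limma, adjusted p 0.0344). The spline called 13 of 26 in culture E, 5 of 26 in culture B and 0 of 25 in the alpha-factor course. Each is below the share of all genes there, 59.6%, 31.9% and 8.14%. In the alpha-factor course 2 had an unadjusted limma p under 0.05, against 1410 of 5359 genes. The median of the ubiquitin pathway list at 30 min was -0.10 for culture B and -0.15 for E, where those of the proteasome genes were -0.32 and -0.68.

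Within each course the proteasome genes mostly correlated positively with each other. The median Pearson r over pairs of them was 0.54 in the alpha-factor course, 0.77 in culture B (0.79 without the 135 min array) and 0.65 in culture E, where it was 0.00 over pairs of all genes. The points of each r are the 16 or 17 arrays of 1 culture, which share the culture, the array preparation and the reference, so these values describe the arrays. With RPN4 the proteasome genes had a median r of 0.24, 0.52 and 0.26; in culture B this was 0.31 without the 135 min array, on which both were low. RPN8, PUP2 and SCL1 had the lowest r with the mean of the proteasome genes in culture E, 0.21, 0.24 and 0.37, and all 3 were high on its 0 min array.

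Among 4894 other genes, those most like the mean of the proteasome genes were ranked by the lowest of the 3 values of r, 1 for each course. UFD1, which encodes a substrate-binding cofactor of the Cdc48 segregase, came first with values of 0.88, 0.92 and 0.95. TYS1, the tyrosyl-tRNA synthetase gene, had a lowest r of 0.80. The co-chaperone gene SBA1 had 0.78, and UBP6, which encodes a deubiquitinase bound to the base of the proteasome, 0.77. The next were VPS70, NSG2, LSB3, MET14, PEP12 and PRD1, with lowest values between 0.68 and 0.74. Among 4926 genes, those most like RPN4 were GRX7, TAN1, MIX17, UBC6, FES1, SIS1, CIR1, GLO2, ISU1 and UBC4, with lowest values of r between 0.535 and 0.635. UBC6 and UBC4 encode ubiquitin-conjugating enzymes, and FES1 and SIS1 partners of cytosolic heat shock chaperones. None of the proteasome genes was among these 10.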

How the data were processed

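The deposited table held 6258 probes on 49 arrays as log2 ratios of Cy5 over Cy3, per the labels' dyes; the base of the logarithm is assumed. How spots were scanned, filtered, corrected and normalized is not given in the sources used here. Per the labels' protocols, messenger RNA was purified, reverse-transcribed and coupled to the dyes. The platform annotation named 5570 probes; 688 without a symbol were kept under their probe identity. Probes of 29 genes were averaged, which left 6228 features.

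Each array was centred on its median. A gene entered a fit where at least 80% of its arrays had a value, and was tested with limma 3.58.1 in R 4.3.3, with two-sided p-values, adjusted by Benjamini and Hochberg's method across all tested genes, and a threshold of 0.05. Contrasts used 15 arrays in 10 groups, with 5 residual degrees of freedom, all from the cdc28 pairs, and 4.21 prior degrees of freedom. Each course was fitted with a natural spline of 4 degrees of freedom, and with a cosine and a sine term over a linear trend. The scripts were tested on simulated data. The arrays of a course are times of 1 culture and not replicates, so course p-values measure the scatter around a curve.

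The letters B and E of the labels are cultures, so arrays of 1 letter are paired: the differences between the cultures at pairs of times correlated over 5041 features with r from -0.08 to 0.87, above 0.1 in 6 of 10 pairs. Members and lists were chosen with earlier results of these data known. All members were counted by role, with RPN4 alone. Values were given for RPN4, the 2 largest and 2 smallest changes each way, exceptions within a group and called genes, and for up to 4 genes of each other list. Alternatives were centring, quantile normalization, missing-value filters, array letter, culture block, robust variance, spline, period and trend settings, and leaving out single arrays; 30 min as the reference time was added after the data were seen. Promoter and protein sequences were not used here.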

Additional observations from a re-analysis of the deposited data

How the results depend on the processing

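The number of arrays limits the precision: 1 alpha-factor culture and 2 cdc28 cultures stand behind every value, and the single alpha-factor arrays have no replicate. Counts of proteasome genes past the threshold were recomputed under each alternative. The shares of all genes called under the alternatives are not given beside these counts. A shift particular to the proteasome genes thus cannot be told from a general one. With the replicate block for the paired cultures, 1 gene passed for the cdc28 change at 60 min. For the arrest differences 3 passed at 0 min and 2 at 30 min, here taken from the fitted level of culture B alone. Without the block 0 passed in each, and the block changed no other count. With the array letter as a covariate 3 passed for the arrest difference at 30 min and 1 gene was periodic in culture E. A spline of 5 degrees of freedom called 2 genes in the alpha-factor course. In that course 0 were periodic at a period 10% shorter, 3 at one 10% longer and 1 without the trend. In culture E, where 2 were periodic, 1 was without centring, 4 under quantile normalization, 1 at a period 10% longer and 0 without the trend. Leaving out single arrays gave 0 to 1 genes for the cdc28 changes at 30 and 60 min, and 0 for the other 7 contrasts. For the change over time it gave 0 to 2 in the alpha-factor course, 6 to 25 in culture B and 21 to 27 in culture E. The low of 6 in culture B came without the 15, 60 or 225 min array and the high of 25 without the 135 min array. Periodic calls ranged from 3 to 12 in the alpha-factor course, 0 to 2 in culture B and 1 to 2 in culture E. The 1 in culture E came without the array at 10, 30, 40, 60, 70, 80, 90, 100, 110, 120 or 130 min. The median arrest difference at 30 min was 0.69, and 0.41 to 0.95 without single arrays. For RPN4 the change over time in culture B passed under quantile normalization (adjusted p 0.031, limma), with splines of 3 and 5 degrees of freedom (0.037 and 0.0325) and without the 135 or 180 min array (0.012 and 0.0417). No alternative reversed a difference that had passed. The causes of these shifts were not tested.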
